A study of Mus musculus with 24 samples.

Results

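Bone morphogenetic proteins (BMPs) and their nearest regulators were followed as 9 genes out of the 24346 gene symbols listed for every library. They were the ligands Bmp2, Bmp4, Bmp5 and Bmp7, the secreted antagonists Grem1, Chrdl1 and Nog, and the target genes Id1 and Id3, taken by symbol in all 24 libraries and set out by sample group and by tumor or normal tissue. Of these 9 genes, 8 passed the filter on low values used for testing (4 or more libraries with 1 FPKM or above, met by 13799 genes), and Nog did not. FPKM, fragments per kilobase and relative to all mapped fragments, is corrected for transcript length, so levels of different genes can be set side by side on that scale.

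All libraries came from colorectal tissue of mice treated with AOM/DSS, in which the carcinogen azoxymethane and repeated colitis from dextran sulfate sodium in the drinking water lead to tumors of the colon. The genotype was labelled either c-MAF_KO or wild type (WT), c-MAF being a transcription factor encoded by Maf. By sample title, the KO label divides into a homozygous group, KO-8-homo, and the heterozygous groups KO-1-hetero and KO-8-hetero, and the WT label into WT-young and WT-old. There were 3 tumors from each KO group, 4 from WT-young and 1 from WT-old, beside 2 normal samples for each, which made 9 KO and 5 WT tumors and 6 KO and 4 WT normal samples. Every group, WT included, had received AOM/DSS, so the normal tissue is normal tissue of treated animals. The meaning of the leading numbers 1 and 8, the ages behind young and old, the strain, the knocked-out allele, any Cre driver and the animal behind each sample are not given in the sources used here. Because the labels do not say that samples of a group came from separate animals, p-values measure only the spread between these samples, which may be technical.

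BMPs are secreted dimers of the TGF-beta family that bind paired type I and type II receptor kinases, which then phosphorylate Smad1, Smad5 and Smad9. In the colon, BMP activity is high towards the lumen, where it favours differentiation, and is held low at the crypt base by antagonists that fibroblasts and smooth muscle cells below the crypt secrete. The Id genes are classical direct Smad targets, and their proteins lack a DNA-binding region and hold E proteins away from DNA.

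Maf itself did not follow the genotype label. It ran from 1.63 to 2.26 FPKM in the 4 WT-young tumors, was 7.26 FPKM in the WT-old tumor, and ran from 2.62 to 7.4 FPKM in the 9 KO tumors. It ran from 1.37 to 2.82 FPKM in WT and from 1.52 to 6.27 FPKM in KO normal tissue. KO and WT therefore stand below for libraries labelled so. Between 12074 and 13290 genes reached 1 FPKM in a library, and relative sequencing depth, estimated from the spacing of low values, ran from 0.697 to 1.87 times the median library. Xist, transcribed in female cells, was at least 7.38 FPKM in 6 libraries (KO-1-hetero and KO-8-hetero: all 4 normal samples and tumor 3 of each) and at most 0.0719 FPKM in the other 18. Xist thus moved with the KO tumor-normal contrast. Tumors 1 and 2 of each heterozygous group were Xist-low, unlike tumor 3 and the normal samples of that group.

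Levels of cell type markers also differed between the pieces. Of all 13799 tested genes, 24.1% rose and 23.2% fell in KO tumors, and 15.5% rose and 14.8% fell in WT tumors. Counts of 1 or 2 markers of a list are therefore not read as a change of that list. All 7 smooth muscle markers fell in tumors under both labels, and their summed FPKM was 577.6 to 2489 (median 1968) in KO normal tissue, 83.0 to 584 (median 274) in KO tumors, 489 to 3856 (median 1319) in WT normal tissue and 68.2 to 1522 (median 99.2) in WT tumors. Of 6 fibroblast markers, 4 rose and 1 fell in KO tumors and 1 rose in WT tumors, with sums of 335 to 457 in KO normal tissue and 545 to 1132 in KO tumors, against 181 to 537 and 293 to 845 under the WT label. Epithelial markers were high everywhere, with sums of 2901 to 8462 FPKM, and 2 of 6 fell in KO tumors, Krt8 by 0.68 and Cdhr5 by 0.95 on the log2 scale. Of 5 leukocyte markers, 2 rose under both labels, Itgam by 1.43 (KO) and 1.44 (WT) and Cd68 by 1.12 and 1.24. The leukocyte sum was 597 FPKM in the WT-old tumor and 23.8 to 123 FPKM in the other 23 libraries. Of the sum in the WT-old tumor, 404 FPKM was Cd79a, which was not among the 2 markers that rose under both labels. The sum of the 6 enteric neuron and glia markers was 4.05 to 10.5 FPKM in KO normal tissue and 2.23 to 16.0 in KO tumors. Under the WT label it was 4.88 to 16.1 in normal tissue and 1.62 to 5.54 in tumors. Of these markers, S100b passed the filter through normal samples alone, with 1 FPKM reached in 9 normal samples and no tumor. Tubb3 went up to 12.9 FPKM in tumors and 7.44 FPKM in normal tissue. None of the markers was at 0 in every library. In bulk tissue, fewer cells of a type and less RNA per cell cannot be told apart, and the part of cell makeup or of Xist status in the results below was not tested beyond the covariate fit that is named.

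On the FPKM scale the target genes had the highest levels and Nog the lowest. Median levels in the 14 tumors were 197 for Id1, 112 for Id3, 37.2 for Grem1, 20.8 for Bmp4, 14.5 for Bmp5, 11.1 for Bmp7, 5.54 for Bmp2, 0.821 for Chrdl1 and 0.167 for Nog. In the 10 normal samples the medians were 176 for Id1, 74.9 for Id3, 16.7 for Grem1, 10.3 for Bmp4, 9.42 for Bmp5, 8.57 for Bmp2, 4.17 for Chrdl1, 2.03 for Bmp7 and 0.265 for Nog. Bmp7 was thus below Bmp2 and Chrdl1 in the normal order and above both in the tumor order. Neighbours in each order had overlapping ranges, with the exception of Id3 and Grem1 and of Bmp7 and Nog in normal tissue.

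**Figure D1:**
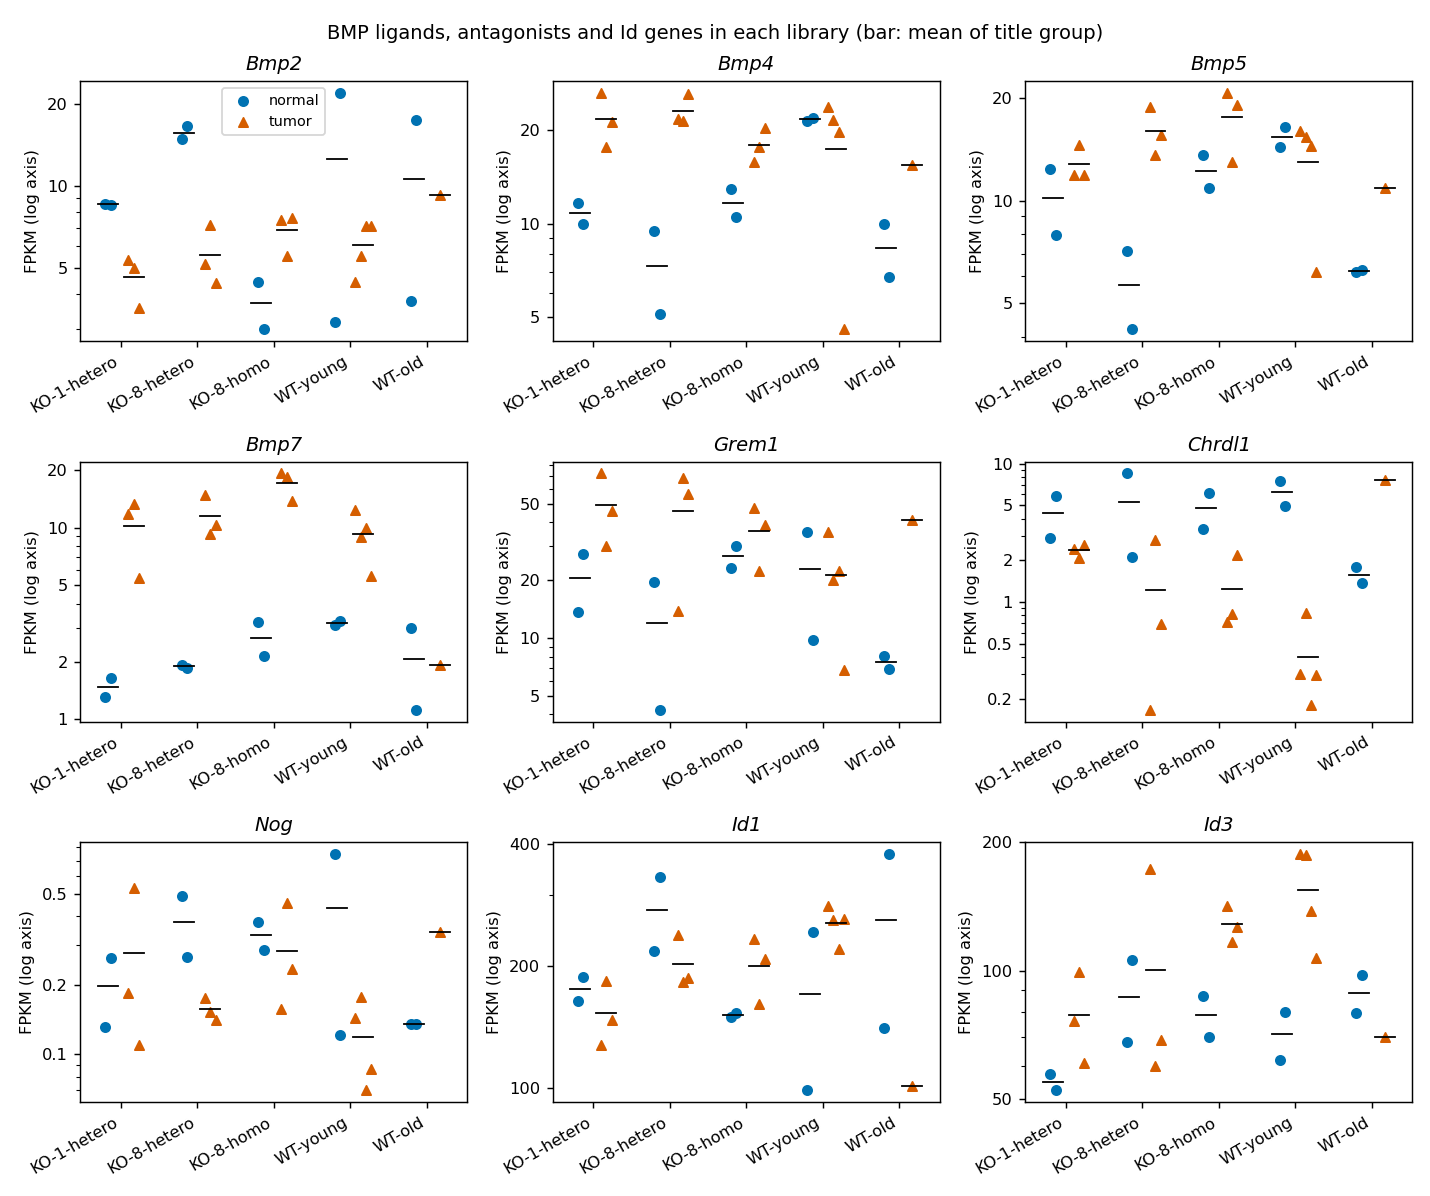
FPKM of each of the 9 genes in every library (log axis), by title group, with tumor and normal samples marked separately. Bmp7 is the gene whose tumor and normal points separate most clearly, with 13 of 14 tumors above the highest normal sample at 3.24 FPKM.

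Bmp7 rose in tumors under both labels. This ligand signals with Bmp2 and Bmp4 as a heterodimer as well as by itself. Its FPKM was 1.3 and 1.65 in KO-1-hetero normal tissue against 11.8, 13.3 and 5.48 in the tumors, 1.93 and 1.85 against 14.8, 9.27 and 10.3 in KO-8-hetero, and 3.2 and 2.13 against 19.2, 18.4 and 13.7 in KO-8-homo. In WT-young it was 3.1 and 3.24 in normal tissue against 12.4, 8.92, 9.93 and 5.6 in tumors, and in WT-old it was 3.01 and 1.12 against 1.93 in the single tumor. All 9 KO tumors lay above all 6 KO normal samples, and 4 of 5 WT tumors lay above all 4 WT normal samples, the exception being the WT-old tumor.

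The mean of Bmp7 was 12.9 ± 4.33 FPKM in KO tumors (SD, n = 9) and 2.01 ± 0.647 in KO normal tissue (SD, n = 6), and 7.76 ± 4.08 in WT tumors (SD, n = 5) and 2.62 ± 1.00 in WT normal tissue (SD, n = 4). Fold changes here and below are differences of mean log2(FPKM + 1), tumor minus normal, which understate the change of low genes. For Bmp7 the log2 fold change was 2.16 (SE 0.277, limma adjusted p = 4.23e-06) under the KO label and 1.15 (SE 0.353, limma adjusted p = 0.0169) under the WT label. The KO value kept its call in every alternative tried. The WT value lost it without WT-young tumor 1 (0.96, limma adjusted p = 0.0545) and without WT-old normal 2 (0.92, limma adjusted p = 0.0697). It also lost it when the WT-young and WT-old groups were weighted equally (0.63, limma adjusted p = 0.0888).

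Bmp4, a ligand made mainly by crypt mesenchyme, rose in KO tumors. Its FPKM was 11.7 and 10 in normal tissue against 26.4, 17.7 and 21.2 in tumors of KO-1-hetero, 9.5 and 5.13 against 21.8, 21.4 and 26.1 in KO-8-hetero, and 12.9 and 10.5 against 15.8, 17.7 and 20.4 in KO-8-homo. All 9 KO tumors were above all 6 KO normal samples. In WT-young it was 21.5 and 21.9 in normal tissue against 23.8, 21.6, 19.8 and 4.57 in tumors, and in WT-old 9.95 and 6.74 against 15.5. The WT-young normal samples therefore lay at the level of the tumors, and WT tumors and normal samples overlapped.

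The log2 fold change of Bmp4 was 1.03 (SE 0.278, limma adjusted p = 0.00459) under the KO label, from means of 9.95 ± 2.66 to 20.9 ± 3.63 FPKM, and its call held in every alternative. Under the WT label it was 0.15 (95% interval -0.58 to 0.89, limma adjusted p = 0.769), from 15 ± 7.81 to 17.1 ± 7.61 FPKM. WT-young tumor 4, with the lowest Bmp4 of any library, also had the lowest fibroblast marker sum of the tumors (293 FPKM), the lowest endothelial sum of all libraries (18.1) and the highest epithelial sum of the tumors (7784).

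Bmp5, closely related to Bmp7 in sequence and also made by stroma, also rose in KO tumors. In FPKM it was 12.4 and 7.94 in normal tissue against 11.9, 14.6 and 11.9 in tumors of KO-1-hetero, 7.14 and 4.2 against 18.8, 13.6 and 15.6 in KO-8-hetero, and 13.6 and 10.9 against 20.7, 13 and 19.1 in KO-8-homo. WT-young normal tissue had 14.4 and 16.4 and its tumors 16.0, 15.4, 14.5 and 6.19, while WT-old had 6.19 and 6.27 in normal tissue and 10.9 in the tumor. Of the KO tumors, 6 of 9 were above all KO normal samples, whereas no WT tumor was above all WT normal samples. The log2 fold change was 0.72 (SE 0.242, limma adjusted p = 0.0179) under the KO label and 0.26 (SE 0.308, limma adjusted p = 0.55) under the WT label. The KO call was lost without KO-8-hetero normal 2 (0.54, limma adjusted p = 0.0647) and with log2(Xist + 1) as a covariate (0.64, limma adjusted p = 0.0512).

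Bmp2, a ligand of the differentiated surface epithelium, was the ligand whose normal samples varied most. The normal samples of KO-1-hetero had 8.61 and 8.53 FPKM, those of KO-8-hetero 14.8 and 16.5, those of KO-8-homo 4.44 and 2.98, those of WT-young 3.18 and 21.9, and those of WT-old 3.78 and 17.4. KO-1-hetero tumors had 5.37, 5.01 and 3.57 FPKM, KO-8-hetero tumors 5.19, 7.19 and 4.42, KO-8-homo tumors 7.51, 5.54 and 7.59, WT-young tumors 4.44, 5.53, 7.12 and 7.11, and the WT-old tumor 9.27. The normal samples of WT-young and of WT-old thus differed widely within a group, and all 14 tumors lay within the normal range of 2.98 to 21.9. The log2 fold change was -0.46 (95% interval -1.17 to 0.25, limma adjusted p = 0.28) under the KO label and -0.35 (-1.26 to 0.56, limma adjusted p = 0.569) under the WT label.

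Among the antagonists, Grem1 was the highest and rose in KO tumors. Gremlin 1 binds Bmp2, Bmp4 and Bmp7 and in the colon comes from fibroblasts and smooth muscle cells around the crypt base. Its FPKM was 13.7 and 27.5 in normal tissue against 72.1, 30.2 and 46.1 in tumors of KO-1-hetero, 19.7 and 4.23 against 13.8, 68.4 and 56.1 in KO-8-hetero, and 23.2 and 30.1 against 47.5, 22.4 and 38.8 in KO-8-homo. WT-young had 35.8 and 9.79 in normal tissue and 35.6, 20, 22.3 and 6.81 in tumors, and WT-old had 8.09 and 6.86 in normal tissue and 41.4 in the tumor. Of the KO tumors, 7 of 9 were above all KO normal samples, and 1 of 5 WT tumors was above all WT normal samples.

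The log2 fold change of Grem1 was 1.16 (SE 0.441, limma adjusted p = 0.0339) under the KO label, from means of 19.7 ± 9.56 to 43.9 ± 19.8 FPKM, and 0.80 (SE 0.561, limma adjusted p = 0.283) under the WT label, from 15.1 ± 13.8 to 25.2 ± 13.6 FPKM. The KO call was lost in 6 of 24 fits that left out 1 library each (without KO-1-hetero tumor 1, KO-1-hetero normal 1, KO-8-hetero tumor 2, KO-8-hetero tumor 3, KO-8-hetero normal 2, KO-8-homo tumor 1, with values of 0.81 to 1.13 and limma adjusted p of up to 0.122). It was also lost with log2(Xist + 1) as a covariate (limma adjusted p = 0.0508) and with no filter on low values (limma adjusted p = 0.0504).

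Chrdl1, chordin-like 1, a secreted relative of chordin, fell in KO tumors, the opposite direction to Grem1. Its FPKM was 2.9 and 5.84 in normal tissue against 2.41, 2.07 and 2.58 in tumors of KO-1-hetero, 8.5 and 2.12 against 0.166, 2.8 and 0.689 in KO-8-hetero, and 3.38 and 6.1 against 0.718, 0.816 and 2.17 in KO-8-homo. WT-young fell from 7.42 and 4.97 in normal tissue to 0.301, 0.825, 0.179 and 0.297 in tumors. WT-old went the other way, with 1.78 and 1.36 in normal tissue and 7.63 in the tumor. That tumor also had a smooth muscle marker sum of 1522 FPKM, the highest of all tumors, and an epithelial sum of 2901 FPKM, the lowest of all libraries.

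Under the KO label Chrdl1 fell by 1.16 on the log2 scale (SE 0.401, limma adjusted p = 0.0214), from means of 4.81 ± 2.42 to 1.60 ± 0.993 FPKM. The log2 difference under the WT label was -1.10 (SE 0.51, limma adjusted p = 0.104), and without the WT-old tumor it was -1.63 (limma adjusted p = 0.00547). Over all alternatives the WT value ran from -2.36 to -0.30, with limma adjusted p of up to 0.562. The KO call was lost without KO-8-hetero normal 1 (-1.0, limma adjusted p = 0.0595).

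Nog, noggin, the antagonist known best from embryonic patterning, never reached 1 FPKM. Its lowest, median and highest values were 0.0698, 0.167 and 0.535 FPKM in the 14 tumors and 0.122, 0.265 and 0.751 FPKM in the 10 normal samples, so the groups overlapped. In an exact permutation test, two-sided, the tumor-normal difference in mean log2(FPKM + 1) was -0.08 under the KO label (p = 0.363, 5005 splits) and -0.12 under the WT label (p = 0.54, 126 splits).

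Neither Id1 nor Id3 passed the test under either label on the deposited scale. Id1 was 164 and 188 FPKM in normal tissue against 128, 184 and 147 in tumors of KO-1-hetero, 218 and 332 against 239, 183 and 187 in KO-8-hetero, and 150 and 153 against 233, 161 and 208 in KO-8-homo. WT-young had 98.8 and 243 in normal tissue and 281, 260, 220 and 262 in tumors, and WT-old had 141 and 379 in normal tissue and 101 in the tumor. All 14 tumors lay within the range of the normal samples. The log2 fold change of Id1 was -0.08 (95% interval -0.61 to 0.45, limma adjusted p = 0.816) under the KO label and 0.16 (-0.52 to 0.84, limma adjusted p = 0.74) under the WT label.

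Id3 was 57.2 and 52.5 FPKM in normal tissue against 76.1, 99.3 and 60.8 in tumors of KO-1-hetero, 68.0 and 106 against 173, 59.9 and 68.9 in KO-8-hetero, and 87.3 and 70.0 against 142, 117 and 127 in KO-8-homo. In WT-young it was 61.9 and 80.0 in normal tissue against 188, 187, 138 and 107 in tumors, and in WT-old 79.7 and 97.9 against 69.9. All 4 WT-young tumors were above all 4 WT normal samples, and 4 of 9 KO tumors were above all KO normal samples. The log2 fold change was 0.71 (SE 0.312, limma adjusted p = 0.0876) under the WT label and 0.42 (SE 0.245, limma adjusted p = 0.16) under the KO label. Without the WT-old tumor the WT value was 0.93 (limma adjusted p = 0.0229). With quantile normalization Id3 passed under both labels, at 0.96 under WT (limma adjusted p = 0.0376) and 0.74 under KO (limma adjusted p = 0.0304). Over all alternatives the value ran from 0.38 to 1.09 under WT, with limma adjusted p of up to 0.33. Under KO it ran from 0.24 to 0.74, with limma adjusted p of up to 0.437.

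Counted over the tested members, 4 of 8 rose (Bmp4, Bmp5, Bmp7 and Grem1) and 1 fell (Chrdl1) in KO tumors, where 47.2% of all 13799 tested genes passed, 24.1% upwards and 23.2% downwards. Under the WT label 1 of 8 rose (Bmp7) and none fell, where 30.4% of all genes passed, 15.5% upwards and 14.8% downwards. The median log2 fold change of the 8 genes was 0.57 under the KO label and 0.21 under the WT label, against 0.02 over all tested genes under each. The count for the KO label was 3 with log2(Xist + 1) as a covariate and 3 without KO-8-hetero normal 2, and that for the WT label was 3 without the WT-old libraries and 0 with WT-young and WT-old weighted equally.

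**Figure D2:**
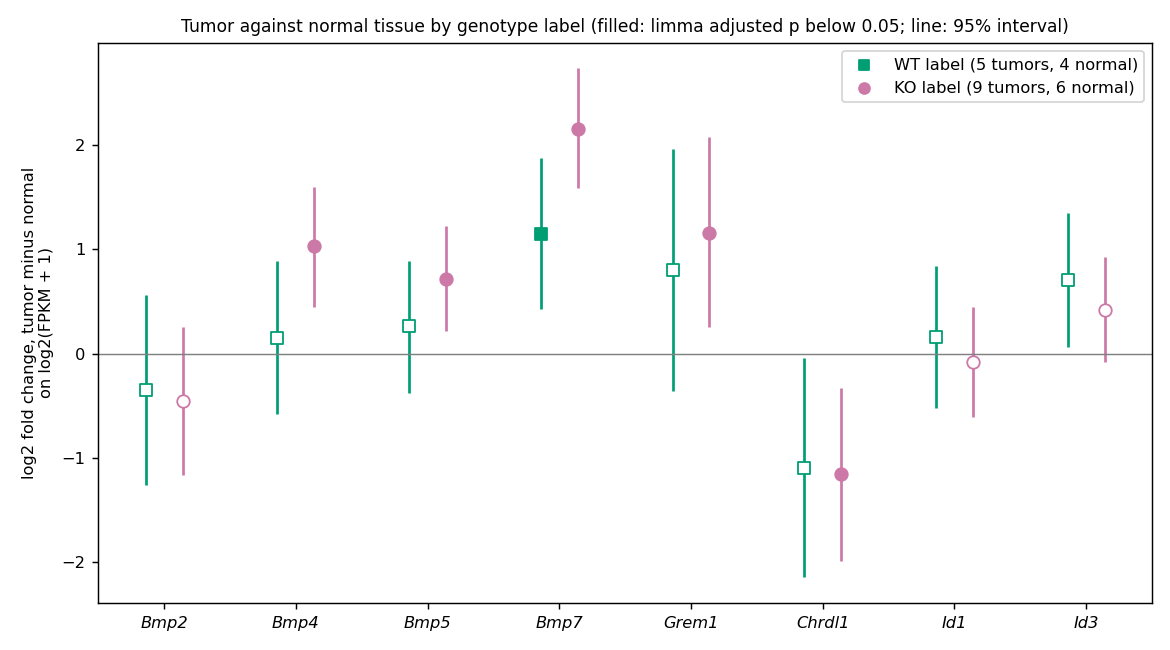
Tumor minus normal difference in mean log2(FPKM + 1) for the 8 tested genes under the WT and KO labels, with 95% intervals and filled symbols where the limma adjusted p was below 0.05. Bmp7 is filled under both labels, and Bmp4, Bmp5, Grem1 and Chrdl1 under the KO label alone, with intervals of both labels overlapping for each gene.

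Whether the tumor-normal difference itself differed between labels was tested as an interaction, and none of the 8 genes passed in limma, as did 0% of all genes. At an unadjusted p below 0.05 there was 1 of the 8, Bmp7, beside 4.74% of all genes. The Bmp7 difference was larger by 1.01 (SE 0.449) under the KO label. For Bmp4 the interaction was 0.88 (SE 0.451). Both had a limma adjusted p of 0.986. The passes under the KO label alone are therefore not shown to be particular to it.

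Within title groups, Bmp7 rose in each of the 4 groups that could be tested. Its log2 fold change was 2.1 in KO-1-hetero (limma adjusted p = 0.00251), 2.08 in KO-8-hetero (0.000246), 2.30 in KO-8-homo (0.000451) and 1.25 in WT-young (0.00955). The WT-old tumor is a single library and was not tested against its normal tissue. In KO-1-hetero Bmp7 was the 1 member of 8 that passed, with 14.1% of all genes passing (1950 genes, and 55 without KO-1-hetero normal 2).

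KO-8-hetero had the longest list, with 6 of 8 genes called where 43.1% of all genes passed (5946 genes, and 2506 without KO-8-hetero normal 2). Besides Bmp7, Bmp4 rose by 1.58 (limma adjusted p = 0.00906), Bmp5 by 1.38 (0.00257) and Grem1 by 1.90 (0.0464), while Chrdl1 fell by 1.48 (0.0177) and Bmp2 fell by 1.36 (0.0488). Only 2 of the 6 calls were left without KO-8-hetero normal 2, the sample with the lowest Bmp4, Bmp5 and Grem1 of all KO normal samples and the highest epithelial marker sum (8462 FPKM).

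In KO-8-homo 2 of 8 passed, with 23.0% of all genes passing (3180 genes, and 737 without KO-8-homo normal 1): besides Bmp7, Chrdl1 fell by 1.38 (limma adjusted p = 0.0419), a call lost without either normal sample of the group (-1.73 and -1.03) or without tumor 1 or 2 (-1.22 and -1.26). Bmp2 in that group was 0.75 higher in tumors (limma adjusted p = 0.323), opposite in sign to the other 3 tested groups. In WT-young 3 of 8 passed, with 26.1% of all genes passing: besides Bmp7, Chrdl1 fell by 2.36 (limma adjusted p = 0.00129) and Id3 rose by 1.09 (0.0261). The Id3 call was lost without any one of tumor 1, tumor 2 and both normal samples (0.91 to 1.27). Bmp4 and Bmp5 in WT-young had log2 fold changes of -0.51 (limma adjusted p = 0.386) and -0.30 (0.476).

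**Figure D3:**
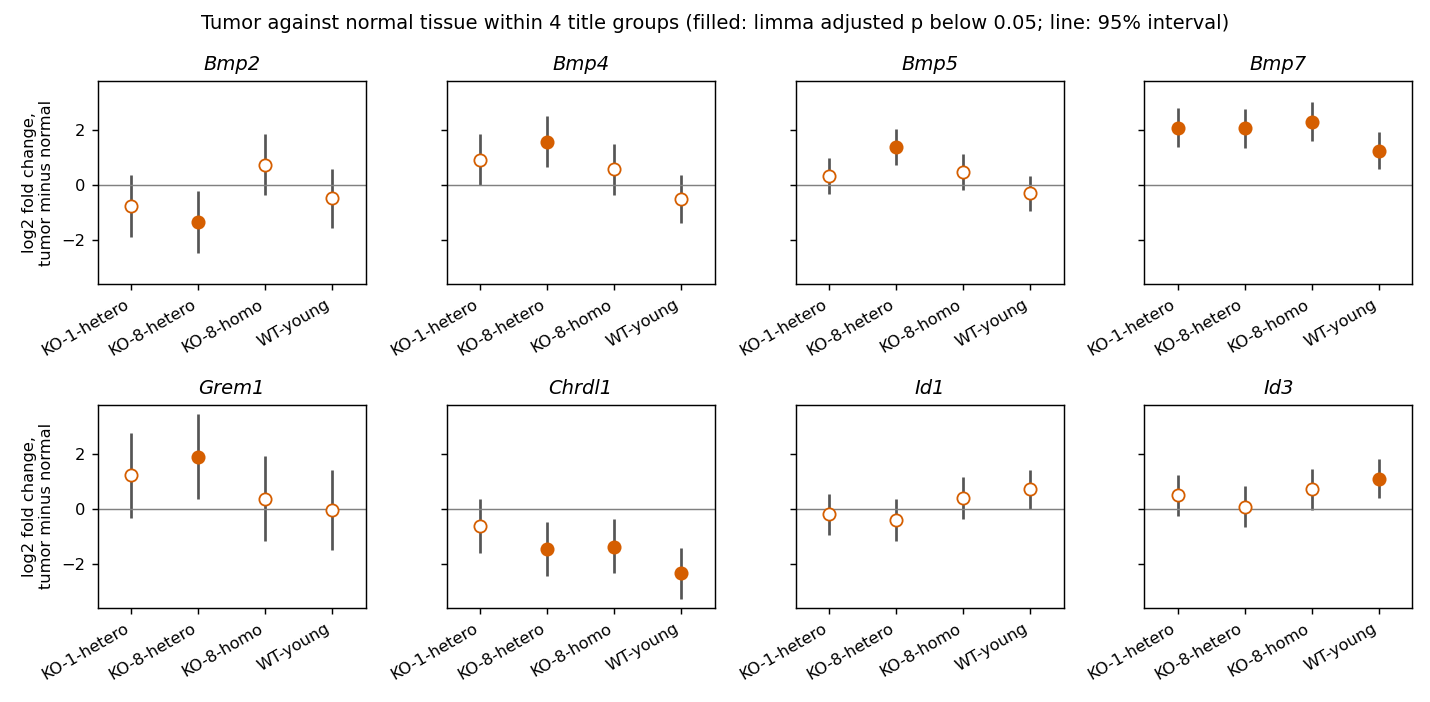
Tumor minus normal difference in mean log2(FPKM + 1) for the 8 tested genes in the 4 title groups with 2 or more tumors, with filled symbols where the limma adjusted p was below 0.05. Bmp7 is filled in all 4 groups, at 1.25 to 2.30, while Bmp4 and Bmp5 are above 0 in the KO groups and below 0 in WT-young.

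Tumors of different genotype labels were also compared directly. None of the 8 genes passed between KO and WT tumors in limma, where 0.00725% of all genes (1 gene) passed. Of the 8, 1 was at an unadjusted p below 0.05, as were 8.31% of all genes. That 1 member was Bmp7, 0.77 higher in KO tumors (SE 0.293, limma adjusted p = 0.481). Grem1 was 0.84 higher (SE 0.466, limma adjusted p = 0.652), Bmp4 0.43 higher (0.723) and Id3 differed by -0.43 (0.684). With each title group weighted equally, Bmp7 passed at 1.30 (limma adjusted p = 0.00392), a fit in which the single WT-old tumor carries as much weight as the 4 WT-young tumors together. In normal tissue none of the 8 passed, with 0% of all genes passing in limma. None of the 8 was at an unadjusted p below 0.05 there, where 4.67% of all genes were.

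Against WT-young tumors alone, 7 of the 9 KO tumors had Id1 below all 4 WT-young tumors, and 5 of 9 had Id3 below all 4. Grem1 was above all 4 WT-young tumors in 6 of 9 KO tumors, and Bmp7 and Chrdl1 were above in 5 of 9 each. How many of all genes separate in this way was not computed. The WT-old tumor, left out of these counts, had Id1 at 101 FPKM, below every KO tumor, and Chrdl1 at 7.63 FPKM, above every KO tumor. Its Id3 was 69.9, its Grem1 41.4 and its Bmp7 1.93 FPKM. Against all WT tumors together, the log2 difference of Id1 was -0.21 (limma adjusted p = 0.879). In limma against WT-young tumors, none of the 8 genes passed for KO-1-hetero, where 2.88% of all genes passed (397 genes, and 15 without KO-1-hetero tumor 3). For that group 3 of the 8 were at an unadjusted p below 0.05, as were 19.1% of all genes. They were Chrdl1 at 1.28 (limma adjusted p = 0.0842), Id3 at -0.96 (0.0896) and Id1 at -0.75 (0.186). None passed for KO-8-hetero, where 0.00725% of all genes passed. There Id3 (-0.75, limma adjusted p = 0.705) was the 1 of the 8 at an unadjusted p below 0.05, as were 6.96% of all genes. None passed for KO-8-homo, where 0.457% of all genes passed. There Bmp7 (0.85, limma adjusted p = 0.265) was the 1 of the 8 at an unadjusted p below 0.05, as were 10.1% of all genes. These 3 comparisons share the WT-young tumors. Between KO-1-hetero and WT-young tumors, 3 of 7 smooth muscle markers (median log2 difference of the 7, 1.93) and 2 of 5 leukocyte markers (median 1.08) were also higher, and 1 of 6 epithelial markers was lower. Their part in the member values was not tested.

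Between KO groups, none of the 8 genes passed in limma for KO-8-homo against KO-8-hetero tumors (0.0507% of all genes) or for KO-1-hetero against KO-8-hetero tumors (0% of all genes). None of the 8 was at an unadjusted p below 0.05 in either, where 5.8% and 9.88% of all genes were. The largest difference of the first comparison was that of Bmp7, at 0.55 (95% interval -0.09 to 1.19, limma adjusted p = 0.894).

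The members also varied among themselves, and 72 relations (36 pairs in each tissue) were computed on log2(FPKM + 1) with permutation tests of 100000 resamples, two-sided. Of these, 4 had adjusted p-values below 0.05 for both Pearson's r and Spearman's rho. In the 10 normal samples Bmp4 and Bmp5 rose and fell together, with r = 0.91 (permutation p = 1e-05, the smallest these resamples can give, adjusted 0.00072) and rho = 0.96 (permutation p = 4e-05, adjusted 0.00288). Without the 2 samples farthest from the Bmp4 median r was 0.88. It was 0.95 within the 6 KO samples and 0.87 within the 6 samples with low Xist. In the 14 tumors r was 0.70 but rho was 0.28 (permutation p = 0.328), and r was -0.32 without the 2 farthest tumors, so the tumor relation rests on those samples.

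Bmp2 and Id1, a ligand and a target, were related in normal tissue. Their r was 0.87 (permutation p = 0.00082, adjusted 0.0197) and rho 0.88 (permutation p = 0.00151, adjusted 0.0437) over 10 samples, r was 0.93 without the 2 farthest samples, 0.84 within the 6 KO samples and 0.87 within the 6 samples with low Xist. The samples with the lowest and highest Bmp2 in WT-young, 3.18 and 21.9 FPKM, had Id1 at 98.8 and 243 FPKM, and those of WT-old, 3.78 and 17.4 FPKM, had Id1 at 141 and 379 FPKM. The epithelial marker sum of these pairs was 4061 and 6705 FPKM in WT-young and 5897 and 6731 FPKM in WT-old, and the smooth muscle sum was 3856 and 1013 FPKM in WT-young and 1625 and 489 FPKM in WT-old. The KO-8-homo samples, with Bmp2 at 4.44 and 2.98 FPKM, had epithelial sums of 5563 and 5542 FPKM. In KO-1-hetero, with Bmp2 at 8.61 and 8.53 FPKM, the epithelial sums were 5473 and 4939 FPKM. In KO-8-hetero, with Bmp2 at 14.8 and 16.5 FPKM, they were 6095 and 8462 FPKM. The smooth muscle sums were 2203 and 2489 FPKM in KO-8-homo, 578 and 1567 in KO-1-hetero, and 2143 and 1792 in KO-8-hetero. The part of cell makeup in the relation of Bmp2 and Id1 was not tested. In the 14 tumors r was -0.12 (permutation p = 0.689).

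In tumors it was Chrdl1 that ran against Id1. Their r was -0.83 (permutation p = 0.00033, adjusted 0.0119) and rho -0.76 (permutation p = 0.00243, adjusted 0.0437) over 14 tumors, r was -0.73 without the 2 farthest, -0.60 within the 9 KO tumors and -0.84 within the 12 tumors with low Xist. Id1 and Id3 were related with r = 0.75 (permutation p = 0.00186, adjusted 0.0335) and rho = 0.76 (permutation p = 0.00235, adjusted 0.0437), r was 0.77 without the 2 farthest and 0.68 within the 9 KO tumors. The smooth muscle marker sum is set beside Chrdl1 here, and no correlation between them was computed. In the WT-young tumors the sums were 115, 99.2, 72.1 and 68.2 FPKM beside Chrdl1 at 0.301, 0.825, 0.179 and 0.297 FPKM. In the WT-old tumor the sum was 1522 FPKM beside 7.63 FPKM. In KO-8-hetero the sums were 83, 584 and 256 FPKM beside Chrdl1 at 0.166, 2.8 and 0.689 FPKM. In KO-8-homo they were 175, 193 and 473 FPKM beside 0.718, 0.816 and 2.17 FPKM. In KO-1-hetero they were 535, 274 and 459 FPKM beside 2.41, 2.07 and 2.58 FPKM. Within KO-8-homo, tumors ranked by the sum were ranked alike by Chrdl1, and the same held within KO-8-hetero. The WT-old tumor had the highest value of both. The order of the sums was not that of Chrdl1 within KO-1-hetero or WT-young. The part of the smooth muscle sum in the relation of Chrdl1 with Id1 was not tested. In normal tissue Chrdl1 and Id1 had r = -0.46 (permutation p = 0.183). Whether a relation differed between tissues was not tested, and title groups of 1 to 4 libraries are too small for a value of their own.

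**Figure D4:**
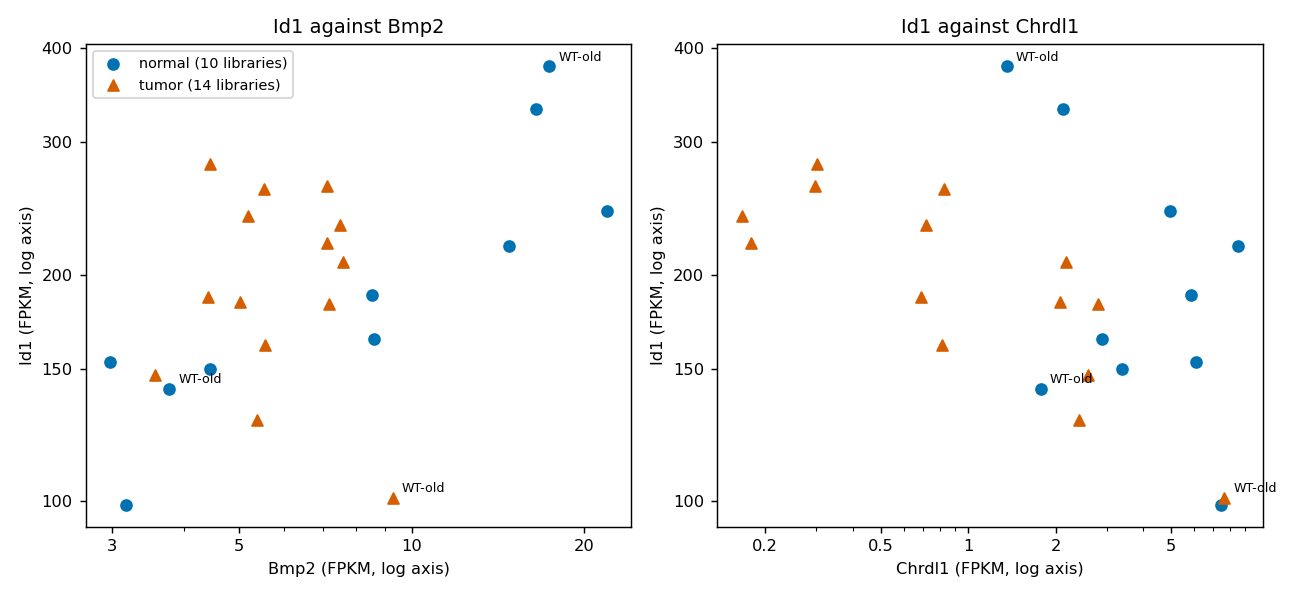
Id1 against Bmp2 (left) and against Chrdl1 (right), both in FPKM on log axes, with 1 point per library, normal samples as circles and tumors as triangles. In normal samples Id1 and Bmp2 rise together (r = 0.87, n = 10), and in tumors Id1 is low where Chrdl1 is high (r = -0.83, n = 14), with the WT-old tumor at the lowest Id1.

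Promoter sequences are shown for every member with a RefSeq promoter entry (GRCm38.p6). These were 4 of the 9 genes, Bmp4, Bmp5, Grem1 and Id3. Each sequence below is the 250 bases before the gene's start, 5′ to 3′ on the gene's strand, and capitals mark GGCGCC, a GC-rich element described at BMP-responsive genes, and CAGAC or its reverse complement GTCTG, the core bound by Smads.
Bmp4 (chr14:46390670-46390919, minus strand): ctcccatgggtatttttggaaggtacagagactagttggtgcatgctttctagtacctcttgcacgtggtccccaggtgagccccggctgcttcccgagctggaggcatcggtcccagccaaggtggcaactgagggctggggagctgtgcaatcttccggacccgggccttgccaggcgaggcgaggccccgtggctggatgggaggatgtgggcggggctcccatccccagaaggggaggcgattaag
Bmp5 (chr9:75775115-75775364, plus strand): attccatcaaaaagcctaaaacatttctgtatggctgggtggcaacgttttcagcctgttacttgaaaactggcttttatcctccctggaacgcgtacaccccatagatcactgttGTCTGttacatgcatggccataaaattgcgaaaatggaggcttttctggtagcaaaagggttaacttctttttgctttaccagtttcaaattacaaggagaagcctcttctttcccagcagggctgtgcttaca
Grem1 (chr2:113758649-113758898, minus strand): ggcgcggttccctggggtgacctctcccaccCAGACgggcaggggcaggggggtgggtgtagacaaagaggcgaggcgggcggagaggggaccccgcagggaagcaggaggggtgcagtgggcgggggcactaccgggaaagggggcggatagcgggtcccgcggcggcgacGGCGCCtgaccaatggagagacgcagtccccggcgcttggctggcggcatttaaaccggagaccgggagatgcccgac
Id3 (chr4:136143572-136143821, plus strand): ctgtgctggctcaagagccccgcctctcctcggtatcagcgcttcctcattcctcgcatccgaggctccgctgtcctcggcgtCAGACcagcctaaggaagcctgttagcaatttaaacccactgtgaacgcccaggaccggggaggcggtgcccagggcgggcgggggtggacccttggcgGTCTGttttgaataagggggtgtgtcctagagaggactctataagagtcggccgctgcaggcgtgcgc

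Both strands were searched, and the motifs do not overlap each other in these windows. Counting bases upstream of the start, Grem1 held GGCGCC from -78 to -73 and CAGAC from -219 to -215, Id3 held the Smad core on the plus strand from -167 to -163 and on the minus strand from -68 to -64, Bmp5 held it on the minus strand from -134 to -130, and Bmp4 held neither. GGCGCC was present in 9.59% and CAGAC in 42.2% of the 32851 RefSeq promoters of the same length, and the palindrome GTCTAGAC, present in 0.167%, was in none of the 4. The GC content was 72% for Grem1, 63.2% for Bmp4, 62.8% for Id3 and 42.8% for Bmp5, against a median of 52.4% over all promoters. A match is a description of the letters and not a bound site.

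All 9 genes are protein-coding, and their positions in GRCm38.p6 are as follows. Grem1 lies at chr2:113748675-113758648, Bmp2 at chr2:133552159-133562896, Id1 at chr2:152736251-152737410 and Bmp7 at chr2:172868012-172940321. Id3 lies at chr4:136143822-136145392, Bmp5 at chr9:75775365-75900316, Nog at chr11:89300638-89302559, Bmp4 at chr14:46383525-46390669 and Chrdl1 at chrX:143285674-143394263. The Chrdl1 gene is on the X chromosome, as is Xist, and 4 of the 6 KO normal samples but 2 of the 9 KO tumors were Xist-high. Chrdl1 kept its call under the KO label with Xist as a covariate. In WT-young and KO-8-homo, where every library was Xist-low, its log2 fold changes were -2.36 and -1.38. WT-old, also Xist-low, had more Chrdl1 in its tumor than in its normal samples. Beyond the covariate fit, the part of Xist status in the Chrdl1 values was not tested.

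The rest of the pathway was read from 5 lists with 43 tested genes. Of these, Bmper, Acvr2b and Msx1 reached 1 FPKM in no normal sample and passed the filter through the tumors alone, so they are left out of the counts. Of the other 40, 13 rose and 7 fell under the KO label (median log2 fold change 0.23), and 9 rose and 4 fell under the WT label (median 0.09), against the background shares and the all-gene median of 0.02 given above. None of the 40 passed between KO and WT tumors in limma, where 1 gene of all tested did.

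Of the other ligands, 4 of 10 could be tested, and Bmp3, which opposes the osteogenic ligands, fell under both labels. Its mean was 6.92 ± 3.41 FPKM in KO normal tissue and 2.52 ± 0.932 in KO tumors, a log2 difference of -1.11 (limma adjusted p = 0.00249), and 11.9 ± 8.17 and 2.45 ± 0.841 under the WT label, with a log2 difference of -1.71 (limma adjusted p = 0.00114). Bmp8a fell by 0.32 under the KO label (limma adjusted p = 0.0339).

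Among the other antagonists and extracellular modulators, 12 of 16 were tested and 11 counted, of which 5 rose and 1 fell under the KO label and 3 rose and 1 fell under the WT label. Htra1, a secreted protease, rose by 1.76 under the KO label (limma adjusted p = 2.41e-05) and 1.94 under the WT label (0.000336), from 17.9 ± 4.37 to 66.5 ± 28.0 FPKM in KO samples. Bmp1, a protease that cleaves procollagen and chordin and no BMP ligand despite its name, rose by 1.30 (limma adjusted p = 0.00015) and 1.05 (0.0114). Fstl1, a follistatin-related protein, rose by 1.34 (0.00189) and 1.08 (0.0477), also by limma. Dand5, another antagonist, fell by 0.51 under the WT label (limma adjusted p = 0.00877). Bmper, a chordin-like regulator not counted here, was 0.441 ± 0.233 FPKM in KO normal tissue and 1.95 ± 0.607 FPKM in KO tumors.

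Of 10 tested receptors and co-receptors 9 were counted, of which 1 rose and 3 fell under the KO label and 2 fell under the WT label. The co-receptor Rgmb fell by 0.63 under the KO label (limma adjusted p = 0.000165) and by 0.95 under the WT label (0.000119), and its relative Rgma fell by 0.48 (0.0484) and 0.83 (0.0148). The type II receptor Bmpr2 rose by 0.44 under the KO label (limma adjusted p = 0.00998), while the type I receptor Bmpr1a fell by 0.25 (0.0491). Bambi, a pseudoreceptor that damps signalling, was the 1 pathway gene called in any comparison of tumors between groups, 1.47 lower on the log2 scale in KO-1-hetero than in WT-young (log2 difference -1.47, limma adjusted p = 0.0317).

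Inside the cell, 9 of 10 Smads and regulators were tested, of which 3 rose under the KO label and 2 under the WT label. Skil, a Smad corepressor, rose by 1.14 under the KO label (limma adjusted p = 4.67e-05) and 1.02 under the WT label (0.00275), and Smad5 rose by 0.54 (0.00399) and 0.48 (0.0499). Smurf1, a ubiquitin ligase for Smads, rose by 0.52 under the KO label (limma adjusted p = 0.016).

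The remaining list held other target genes and the E proteins that Id proteins bind, 8 of 9 of them tested and 7 counted. Under the KO label 4 rose and 1 fell, and under the WT label 4 rose. Unlike Id1, Id2 rose under both labels, by 0.64 (limma adjusted p = 0.00506) and 1.16 (0.000701). Id4 fell by 1.41 under the KO label (limma adjusted p = 0.00354), from 7.89 ± 3.84 to 2.30 ± 1.11 FPKM. The E proteins rose: Tcf4 by 1.51 under the KO label (limma adjusted p = 8.5e-05) and 1.61 under the WT label (0.00114), Tcf12 by 1.20 (0.000979) and 0.96 (0.0355), and Tcf3 by 0.77 (0.0025) and 0.93 (0.00673). Msx1, a homeobox target not counted here, had means of 0.107 ± 0.07 FPKM in KO and 0.0996 ± 0.0718 FPKM in WT normal tissue. In tumors the means were 1.46 ± 2.57 FPKM under KO (median 0.643, highest 8.29) and 1.54 ± 0.931 FPKM under WT (median 1.32). Msx1 reached 1 FPKM in 5 of the 14 tumors.

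**Figure D5:**
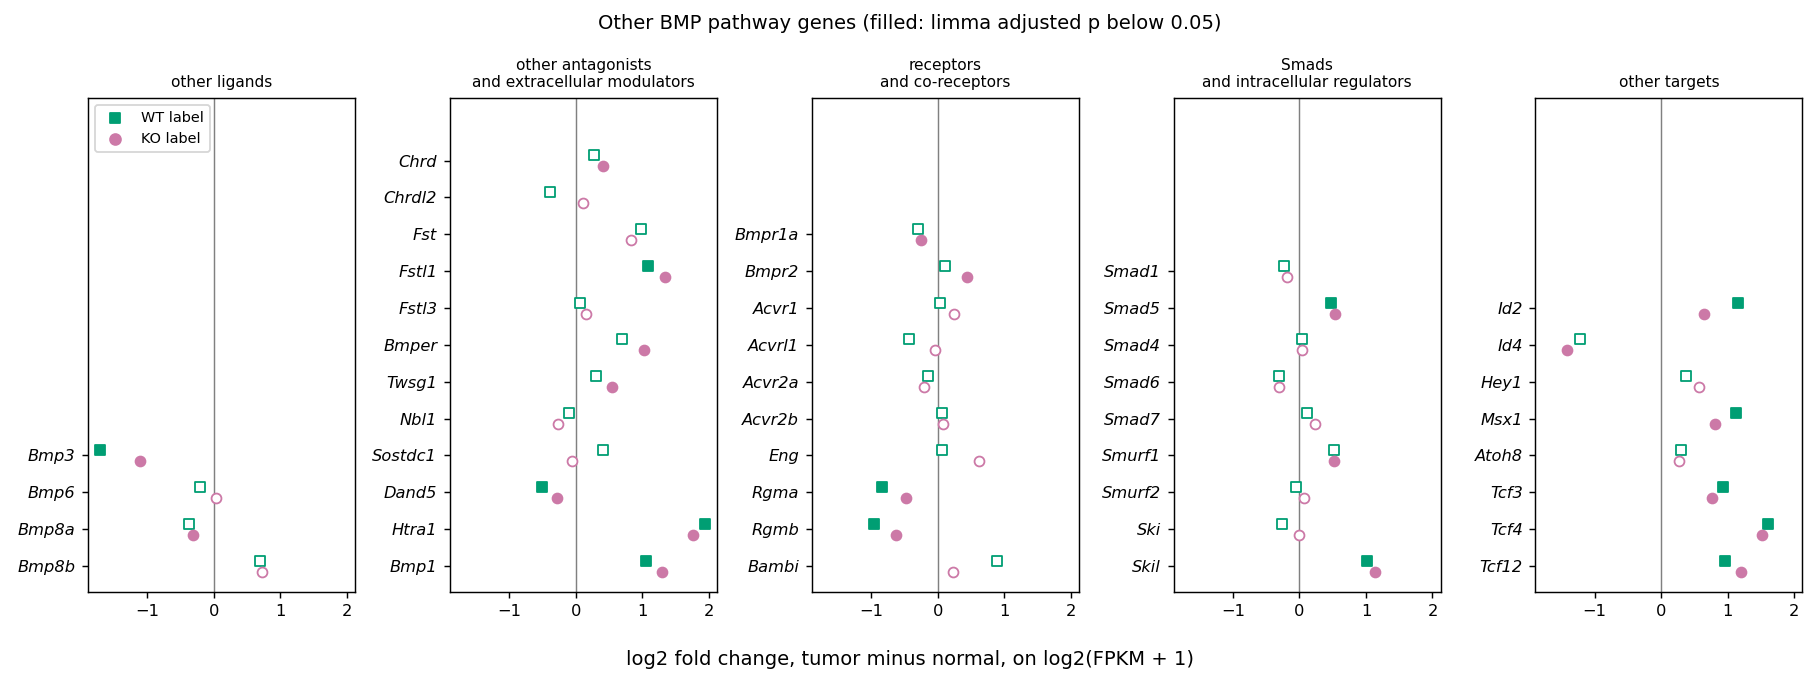
Tumor minus normal difference in mean log2(FPKM + 1) for the tested genes of the 5 BMP pathway lists under the WT and KO labels, with filled symbols where the limma adjusted p was below 0.05. Htra1, Tcf4, Bmp1 and Skil are filled above 0 under both labels, and Bmp3 and Rgmb are filled below 0 under both. Bmper, Acvr2b and Msx1, which passed the filter through tumors alone, are drawn but not counted.

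Genes whose level ran most like each member over the 14 tumors are given as a description, by Pearson's r on log2(FPKM + 1). For Chrdl1 the nearest was Id4 (r = 0.98, 0.95 without the 2 tumors farthest from the Chrdl1 median), followed by Popdc2 and Sntg2 (0.97 each). For Bmp7 they were Phlda1 (0.97), Dcakd (0.96) and the collagen receptor Ddr1 (0.96). For Grem1 they were Sulf1 (0.92), Pdpn (0.91), a marker of activated fibroblasts, and Copz2 (0.91).

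For Id1 the nearest were Gpd2 (0.96), Skp1a (0.94) and Nln (0.94), and for Id3 Cep78 (0.98), Ccdc125 (0.97) and Zfp810 (0.96). For Bmp5 they were Bdkrb2 (0.94), Rhoj (0.90) and Set (0.88), for Bmp2 Rel (0.83), Rnf19a (0.83) and Nxpe4 (0.81), and for Nog, far below the filter, Rgag4 (0.93), Phf24 (0.86) and Srpk3 (0.86). For Bmp4 they were Efemp2 (0.93), Ggt5 (0.91) and C1qtnf5 (0.89), and these rest on the WT-old tumor and WT-young tumor 4, since r fell to 0.45, 0.25 and 0.13 without them. Without the 2 tumors farthest from the member's median, r was 0.65 to 0.78 for the genes nearest Bmp5 and 0.67 to 0.75 for those of Bmp2. It was 0.75 to 0.83 for those of Grem1 and 0.55 to 0.89 for those of Nog. For those of Bmp7, Chrdl1, Id1 and Id3 it was 0.86 or more.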

How the data were processed

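RNA-seq was measured in 24 libraries of mouse colorectal tissue. Per the labels' protocols, a miRNeasy kit was used for RNA extraction and a stranded TruSeq mRNA kit for the libraries. The submitters' processing notes name TopHat2 2.1.1, Bowtie2 2.2.8, SAMtools 0.1.18, Cuffdiff 2.2.1 and the build mm10, with no role or order. The authors deposited FPKM values per gene symbol, 1 file per library, per the file headers. No counts were used, so absolute depth is unknown, and no count model was run.

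Groups were taken from sample titles. FPKM values were tested as log2(FPKM + 1), pseudocount 1, for the 13799 of 24346 genes that reached 1 FPKM in 4 or more libraries. The test was limma 3.58.1 in R 4.3.3 (lmFit, contrasts.fit, eBayes with trend, two-sided) on all 24 libraries, in 1 model of 4 label-by-tissue groups and 1 of 10 title groups, with Benjamini-Hochberg adjustment over all tested genes at a threshold of 0.05. The scripts were tested on simulated data. Nog, below the filter, had an exact permutation test. Relations between members used permutation tests (numpy 2.4.6, scipy 1.17.1) with Benjamini-Hochberg adjustment over the 72 relations.

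The 9 genes and all gene lists were chosen with earlier results of these data known. Some genes of the pathway and marker lists are not reported here, and the pathway counts leave them out. Named were the 9 genes, up to 4 genes per pathway list and comparison by p among those past the threshold, and the 3 genes most correlated with each member over tumors. Promoters and positions came from RefSeq, GRCm38.p6, the assembly that mm10 is built on. Same-numbered tumor and normal samples of a title group did not deviate together (correlations from -0.16 to 0.35), so numbers were not treated as pairs. Alternatives tried were another pseudocount, no filter, no trend, quantile and upper-quartile scaling, a replicate block, Xist as a covariate, the fit without WT-old, equal weights per title group, and each library left out in turn.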

Additional observations from a re-analysis of the deposited data

Results flagged for a closer look

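Single samples standing apart were sought with Dixon's test on log2(FPKM + 1) in 45 combinations of gene and group with 4 to 10 samples, and 8 were found, where chance gives about 1 in 20. Bmp4 was 5.13 FPKM in KO-8-hetero normal 2, against 9.5 to 12.9 in the other KO normal samples. Bmp4 was 4.57 FPKM in WT-young tumor 4, against 15.5 to 23.8 in the other WT tumors and 19.8 to 23.8 in the other WT-young tumors, which gave a flag in each of these groupings. Bmp5 was 6.19 FPKM in that same tumor, against 14.5 to 16.0 in the other WT-young tumors. Bmp7 was 1.12 FPKM in WT-old normal 2, against 3.01 to 3.24 in the other WT normal samples. Chrdl1 was 7.63 FPKM in the WT-old tumor, against 0.179 to 0.825 in the other WT tumors, and Id1 was 101 FPKM there, against 220 to 281. Nog was 0.751 FPKM in WT-young normal 1, against 0.122 to 0.136 in the other WT normal samples. The WT-old tumor is the single library of its group, with a leukocyte marker sum of 597 FPKM against 23.8 to 123 FPKM in all others and the lowest epithelial sum (2901 FPKM), and whether age, cell makeup, the piece of tissue or the library sets it apart cannot be told apart.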

How the results depend on the processing

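Counts of members called that moved were as follows. For tumor against normal tissue under the WT label the count of 1 became 2 with quantile normalization, 3 without the WT-old libraries, 0 with equal weight per title group, and 0 to 3 with 1 library left out. Under the KO label the count of 5 became 3 with the Xist covariate, 6 with quantile normalization, as Id3 passed, and 3 to 5 with 1 library left out. The count between KO and WT tumors, 0, became 1 with equal weight. In KO-8-homo the count of 2 became 1 with a pseudocount of 0.1 and 1 with no filter, and 1 to 2 with 1 library left out. Leaving out 1 library gave 1 to 2 in KO-1-hetero, 2 to 6 in KO-8-hetero, and 0 to 1 for KO-1-hetero and for KO-8-hetero against WT-young tumors. In the last of these it was 1 without KO-8-hetero tumor 1.

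Some log2 fold changes changed sign. Under the WT label without the WT-old libraries, Bmp4 was -0.51, Bmp5 -0.30 and Grem1 -0.04, and with equal weight Id1 was -0.24. Between KO and WT tumors with equal weight, Chrdl1 was -0.52 and Id1 0.18. Id1 under the KO label was 0.36 with quantile normalization and 0.02 with upper-quartile scaling, and in KO-8-hetero it was 0.18 with quantile normalization. With 1 library left out, the WT-label values ran from -0.15 to 0.54 for Bmp4, -0.15 to 0.49 for Id1 and -0.75 to 0.07 for Bmp2, the KO-label value of Id1 from -0.15 to 0.08, and the WT-young values from -0.93 to 0.84 for Grem1 and -1.72 to 0.74 for Bmp2. The cause was not tested in any of these.

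In KO-8-hetero the calls of Bmp2 and Grem1 failed in 23 and 18 of the 32 alternatives, those of Bmp4 and Bmp5 without KO-8-hetero normal 2 (1.19 and 1.05), and that of Chrdl1 without KO-8-hetero tumor 1 (-1.10) and normal 1 (-0.67). In KO-8-homo the Chrdl1 call failed in 12 (-1.03 to -1.96). In WT-young the Id3 call failed without tumor 1, tumor 2, normal 1 or normal 2 (0.91 to 1.27) and the Bmp7 call without normal 1 (1.22, limma adjusted p = 0.0538). With a replicate block the KO-1-hetero count was 2, as Bmp4 passed at 0.90 (limma adjusted p = 0.00725), the Grem1 fold change in WT-young turned to 0.32, the Chrdl1 call under the KO label was lost (-1.10, limma adjusted p = 0.0508), and Bmp4 passed and Chrdl1 failed in KO-8-homo (limma adjusted p = 0.0485 and 0.058). The samples share only a number, so this is no paired result.

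Over all genes, calls moved from 4192 to 2682 under the WT label without WT-old, from 1 to 771 between KO and WT tumors with equal weight, from 1950 to 547 in KO-1-hetero with the Xist covariate, and from 397 to 100 for KO-1-hetero against WT-young tumors with the same covariate and to 230 with the replicate block. With 1 library left out they fell as low as 55 in KO-1-hetero (without normal 2; 434, 1172 and 411 without tumor 1, tumor 2 and normal 1), 15 for KO-1-hetero against WT-young tumors (without KO-1-hetero tumor 3; 18 without tumor 1), 737 in KO-8-homo, called 3180 (without normal 1; 874 and 1589 without normal 2 and tumor 1), and 2506 in KO-8-hetero, called 5946 (without normal 2), so the background shares of these comparisons rest on those libraries. Without counts, depth limits cannot be given for low values such as those of Nog.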
